A study of Mus musculus with 6 samples.

Results

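The genes described here encode integrins and laminins, the receptors and ligands that hold an epithelium on its basement membrane, and the data show where the coactivator YAP and the histone mark H3K27ac were detected around them in mouse stomach. Members were protein-coding genes whose symbol starts with Itga or Itgb followed by a digit or letter, or with Lama, Lamb or Lamc followed by a digit, and 42 of the 21887 protein-coding genes of the main chromosomes met this rule. They comprise 27 integrin chains, 11 laminin chains and 4 genes that are only named after integrins. Integrins are pairs of an alpha and a beta chain that span the plasma membrane and link the matrix outside to the cytoskeleton inside. Laminins are trimers of an alpha, a beta and a gamma chain and form the sheet of the basement membrane. Epithelial cells and leukocytes use largely different integrins, so the 9 epithelial chains (Itga2, Itga3, Itga6, Itgav, Itgb1, Itgb4, Itgb5, Itgb6 and Itgb8) were set beside the 9 leukocyte chains (Itga4, Itgad, Itgae, Itgal, Itgam, Itgax, Itgb2, Itgb2l and Itgb7). Itgav, Itgb1 and Itgb5 are also made by many other cells.

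Chromatin came from corpus epithelial cells released with EDTA and frozen without culture. Mice of the normal groups were labelled WT, and those of the tumor groups CluCreERT2;R26rtTA;HA-Yap+, in which the Clu locus drives a tamoxifen-inducible Cre and the transactivator switches on HA-tagged Yap. The labels give all samples the same dosing, tamoxifen (2 mg, 5 days) followed by 14 days on doxycycline food, and no strain, sex or age. H3K27ac, a histone mark found at active regulatory regions, has 1 normal and 1 tumor library, and YAP has 2 of each. The labels do not say whether replicate libraries derive from different mice, so their spread may be technical.

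The deposited data are lists of peak summits, with 22574 normal and 66896 tumor H3K27ac summits, 1654 and 2141 YAP summits in normal 1 and normal 2, and 38268 and 53904 in tumor 1 and tumor 2. Sequencing depth is unknown. The words inside the peak names contradict 2 labels: the peaks of normal 2 are named as those of tumor H3K27ac are, and the peaks of tumor 1 as those of normal H3K27ac. Every direction between YAP groups therefore rests on labels that the files dispute, and 2 libraries against 2 cannot give an exact two-sided permutation p below 0.333. A tumor YAP site below means a pair of tumor 1 and tumor 2 summits within 200 bp, placed at their midpoint and given to the gene with the nearest start or end within 50 kb. The tissue label was checked against marker genes, each H3K27ac summit being given to the gene with the nearest start or end within 50 kb. In the normal library all 13 epithelial markers had a summit (54.3% of all genes). So had 3 of 18 leukocyte markers and 5 of 13 fibroblast, muscle and endothelial markers. In the longer tumor list 12, 10 and 11 of them had one (81.4% of all genes). Of the leukocyte genes, named here after their values were seen, Cd3e, Cd3d, Cd79a, Ms4a1 and Lyz2 had 0 H3K27ac summits assigned in either library, while Ptprc had 1 in each. A summit counts for 1 gene only, so a 0 does not mean that none lay near the gene. Others had more in the full tumor list: Rac2 had 1 normal and 6 tumor summits, Spi1 2 and 5, Adgre1, a macrophage marker, 0 and 4, Coro1a 0 and 3, Ncf1 0 and 2, and Csf1r, Tyrobp, Fcer1g and S100a8 0 and 1 each. In all, leukocyte markers held 4 normal and 25 tumor summits, and 6 in a tumor list shortened to the normal length. Per 100 kb of assigned sequence they held 0.573 normal and 3.58 tumor summits, against 1.52 and 3.82 for all genes. The part of other cells in the results below was not tested, and with bulk chromatin fewer cells of a type and less signal per cell cannot be told apart.

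The promoters below place the YAP sites on sequence. They are 5 of the 8 member windows with a tumor YAP site inside, picked after the motif search to show both windows with GGAATG and examples with and without GC boxes: Lamb3 (chr1:193301993-193302292, + strand), Itgb1 (chr8:128685404-128685703, + strand), Itga3 (chr11:95076665-95076964, - strand), Itgb5 (chr16:33829415-33829714, + strand) and Itga8 (chr2:12301895-12302194, - strand). That of the leukocyte gene Itgax (chr7:128129300-128129599, + strand), a gene with 0 YAP summits in all 4 YAP libraries, is shown for contrast. Each runs 5′ to 3′ on the gene's strand from 250 bases before a RefSeq start to 50 after it (GRCm38). Capitals mark GGAATG, the core letters bound by TEAD factors, the DNA-binding partners of YAP; TGANTCA, the letters bound by AP-1; and GGGCGG, the GC box. All were searched on both strands, and the 3 motifs were chosen after the sites were known.
Lamb3: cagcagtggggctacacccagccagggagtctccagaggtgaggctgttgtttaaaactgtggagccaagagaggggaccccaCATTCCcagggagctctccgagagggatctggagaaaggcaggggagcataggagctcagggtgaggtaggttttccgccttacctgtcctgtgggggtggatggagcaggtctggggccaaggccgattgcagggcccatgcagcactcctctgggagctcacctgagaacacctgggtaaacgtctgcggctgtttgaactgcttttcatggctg
Itgb1: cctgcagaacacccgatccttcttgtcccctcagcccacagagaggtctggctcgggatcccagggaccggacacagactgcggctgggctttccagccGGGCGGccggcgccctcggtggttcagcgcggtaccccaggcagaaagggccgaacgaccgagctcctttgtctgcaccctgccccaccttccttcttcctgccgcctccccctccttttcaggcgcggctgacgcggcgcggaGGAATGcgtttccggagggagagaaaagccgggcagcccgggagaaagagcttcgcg
Itga3: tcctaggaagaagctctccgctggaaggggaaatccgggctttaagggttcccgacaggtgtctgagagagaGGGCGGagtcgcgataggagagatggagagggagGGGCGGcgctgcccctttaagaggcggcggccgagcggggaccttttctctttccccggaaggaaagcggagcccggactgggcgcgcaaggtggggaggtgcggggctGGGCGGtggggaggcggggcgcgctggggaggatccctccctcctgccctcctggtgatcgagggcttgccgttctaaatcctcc
Itgb5: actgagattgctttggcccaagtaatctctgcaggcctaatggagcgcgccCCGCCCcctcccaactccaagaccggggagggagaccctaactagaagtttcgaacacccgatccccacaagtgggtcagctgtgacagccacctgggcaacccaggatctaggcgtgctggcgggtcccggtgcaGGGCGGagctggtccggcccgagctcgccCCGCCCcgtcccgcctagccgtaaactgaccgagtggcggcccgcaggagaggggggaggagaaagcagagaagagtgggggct
Itga8: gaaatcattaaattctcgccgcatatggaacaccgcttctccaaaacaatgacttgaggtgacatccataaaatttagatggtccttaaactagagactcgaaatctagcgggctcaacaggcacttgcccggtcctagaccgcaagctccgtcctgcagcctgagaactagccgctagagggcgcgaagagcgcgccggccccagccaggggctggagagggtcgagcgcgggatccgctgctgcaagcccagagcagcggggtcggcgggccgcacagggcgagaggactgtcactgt
Itgax: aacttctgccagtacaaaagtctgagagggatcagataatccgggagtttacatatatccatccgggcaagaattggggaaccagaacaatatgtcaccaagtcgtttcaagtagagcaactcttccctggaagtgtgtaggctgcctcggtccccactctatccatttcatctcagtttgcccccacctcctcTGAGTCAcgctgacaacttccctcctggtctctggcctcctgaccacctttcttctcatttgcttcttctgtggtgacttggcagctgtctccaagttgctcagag
In the Lamb3 window the YAP site lay at -162 bp from the RefSeq start of that window, and the GGAATG match, here as CATTCC, was centred at -164 bp. Lamb3 has another RefSeq start, and the same site lay 87 bp after it, inside the gene. In the Itgb1 window the site lay at -57 bp and the match at -4 bp. The Itga3 and Itgb5 windows, with sites at -47 and -79 bp, held no GGAATG but 3 GC boxes each. The Itga8 window, with its site at 27 bp, held none of the 3 motifs. Of the 3 windows with a site that are not shown, that of Itgb3bp also held none, that of Itgav held 1 GC box and that of Lama5 held 4. RefSeq windows were matched for 27 of the 42 members. Of 21263 promoter windows of protein-coding genes, 13.6% held GGAATG, 6.99% TGANTCA and 46.2% GGGCGG, and of the 5356 windows with a tumor YAP site 10.7%, 4.72% and 72.0% did. Among the 8 member windows with a site, 2 held GGAATG, 0 TGANTCA and 5 GGGCGG. The letters say where matches lie and nothing about which factor was bound.

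YAP was detected near most members in the libraries labelled tumor, at a share close to that of genes in general. Of the 42 members 29 had a tumor YAP site, against 60.1% of all protein-coding genes. There were 59 such sites: 13 members had 0, 14 had 1, 8 had 2 and 7 had 3 or more, where 28.4% of all genes had 2 or more. Per gene the median was 1 site for the members and 1 for all genes, and per length the members held 1.58 sites per 100 kb of assigned sequence against 1.89 for all genes. Members are long, with a median length of 61.8 kb against 17.2 kb, which widens the stretch from which a site can be assigned. Ranked by score from the top, member sites had a median position of 53.3% of the tumor 1 list and 38.4% of the tumor 2 list. Sites over all genes ranked better, at 39.7% and 28.4%. In single libraries 37 members had a summit in tumor 1 (66.3% of all genes) and 39 in tumor 2 (70.8%), against 4 in normal 1 (2.79%) and 5 in normal 2 (5.98%). Members took 0.242% and 0.234% of the summits in normal 1 and normal 2 and 0.222% and 0.269% in tumor 1 and tumor 2. These shares overlap between the groups, with a tumor mean of 0.246% ± 0.0331 and a normal mean of 0.238% ± 0.00587 (SD, n = 2 each).

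**Figure D1:**
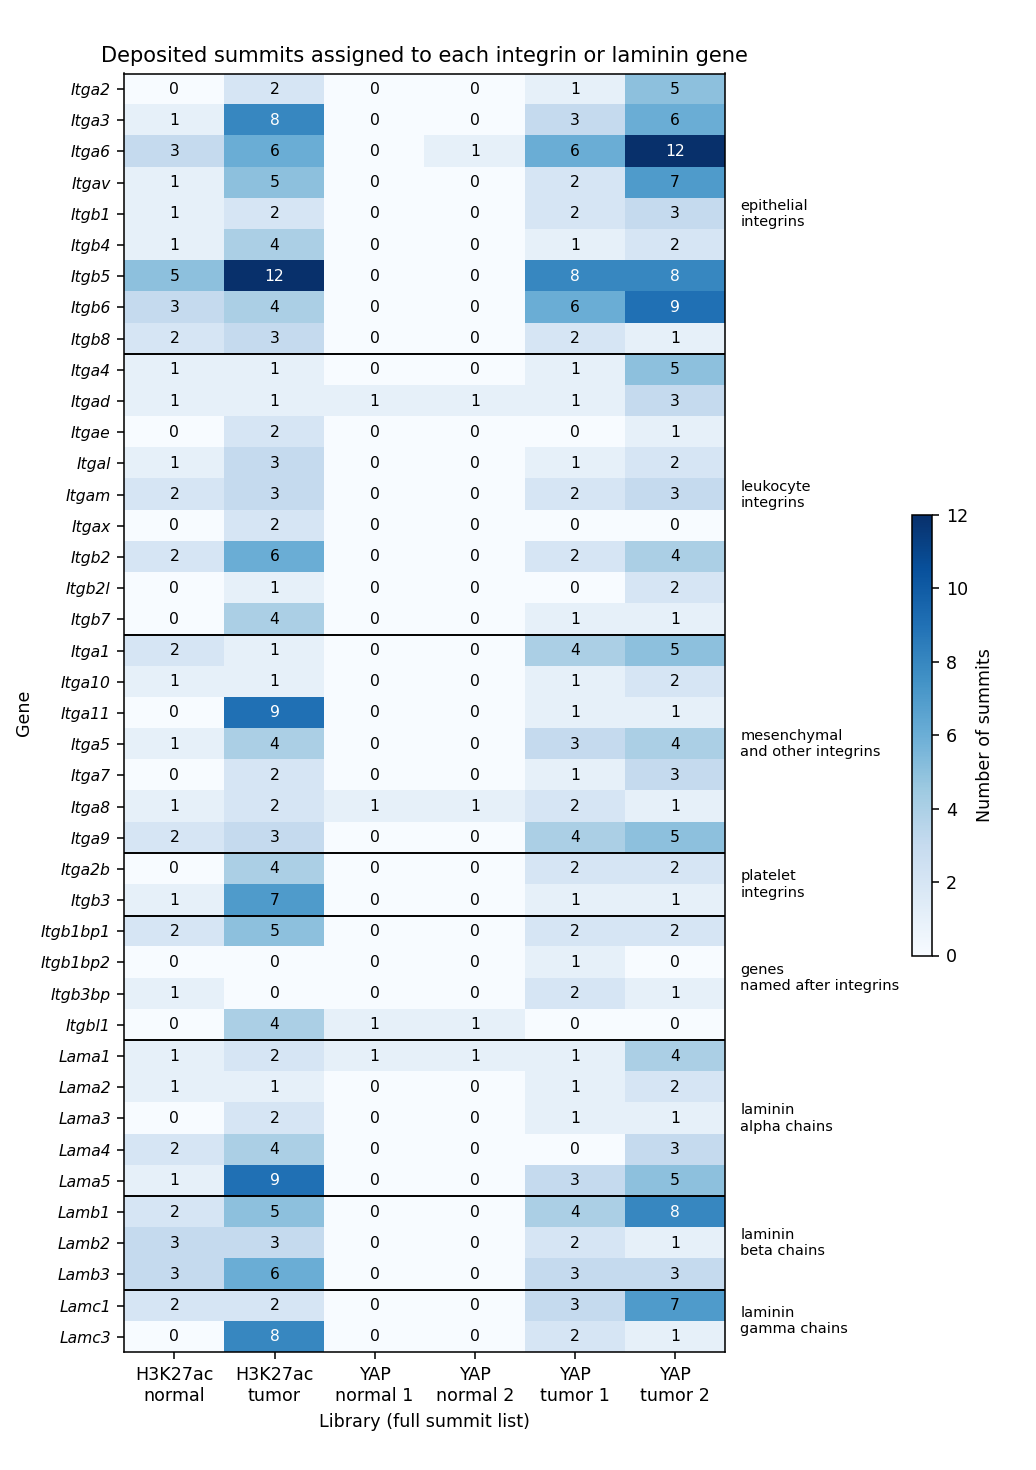
Number of deposited summits assigned to each of 41 member genes (rows, by group) in each of the 6 libraries (columns, full lists); the colour repeats the printed number. No gene has more than 1 summit in a normal YAP column, and Itga6 reaches 12 in tumor 2.

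Epithelial integrins carried 22 tumor YAP sites at 7 of their 9 genes, Itga3, Itga6, Itgav, Itgb1, Itgb5, Itgb6 and Itgb8. In tumor 1 and tumor 2 alone each of the 9 had a summit, 31 and 53 in all, while normal 1 had 0 and normal 2 had 1. Itga6, whose product pairs with that of Itgb4 in the laminin receptor of hemidesmosomes, had 0 and 1 YAP summits in the normal libraries and 6 and 12 in the tumor libraries. Its 5 sites began with one at chromosome 2, position 71786871, 15 bp outside the gene end, with score ranks of 3125 in tumor 1 and 3353 in tumor 2. A normal H3K27ac summit was 386 bp from it and a tumor one 380 bp. Other Itga6 sites lay 47179 and 36843 bp outside the gene and 19238 and 25907 bp inside it. The tumor YAP lists are many times longer than the normal ones, so for this gene and those below the raw counts are not a comparison of the groups.

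Itgb6, which encodes the partner of the Itgav product that activates latent TGF-beta, had 0 and 0 normal and 6 and 9 tumor YAP summits. None of its 4 sites lay near a gene end. The best-ranked were at chromosome 2, position 60703506 (ranks 3244 and 6156) and position 60689202 (ranks 7712 and 1694), 19097 and 33401 bp from the nearer end and inside the gene. A normal H3K27ac summit lay 532 bp from the first of these, and the nearest tumor one 9668 bp away. The other site had no H3K27ac summit of either library within 1 kb. Of the 4 sites 3 lay inside Itgb6 and 1 lay 14409 bp outside it, whereas at Itga6 the best-ranked site lay at the gene end.

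Itgb5, which encodes a vitronectin receptor chain, had the most sites, 6, from 0 and 0 normal and 8 and 8 tumor summits. One lay 79 bp outside its start, and its ranks of 24412 and 21250 were lower than those of the best sites of Itga6 and Itgb6. Itgb1, which encodes the most widely shared beta chain, had 0 and 0 normal and 2 and 3 tumor summits, with a site 57 bp outside its start ranked 7706 and 3318. Itgav, the common alpha chain of the Itgb5, Itgb6 and Itgb8 partners, had 0 and 0 normal and 2 and 7 tumor summits, and its best site at chromosome 2, position 83724345 lay -52 bp from the RefSeq start. Itga3, which encodes a laminin receptor chain, had 0 and 0 and 3 and 6 summits, and Itgb8, whose product also activates TGF-beta, 0 and 0 and 2 and 1. Itga6, Itga3, Itgb1, Itgb5 and Itgb8 each had a site within 1 kb of a gene end, and the best site of Itgav lay 2042 bp inside the gene's outermost end.

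The remaining 2, Itga2 and Itgb4, had tumor summits that did not pair. Itga2, a collagen receptor chain, had 1 and 5 tumor summits, and Itgb4, the hemidesmosomal chain, 1 and 2. When summits up to 500 bp apart were paired, all 9 epithelial genes had a site, as had 6 of the 9 leukocyte genes and 63.4% of all genes.

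Leukocyte integrins carried 5 tumor YAP sites at 4 of their 9 genes, and no site within 1 kb of a gene end. The genes were Itga4, Itgad, Itgam and Itgb7, whose products serve in the homing of lymphocytes and in the adhesion of myeloid cells. Itgam had 0 and 0 normal and 2 and 3 tumor summits, with sites 5563 bp outside and 20704 bp inside the gene. Itga4 had 0 and 0 and 1 and 5, and its site lay 39536 bp outside the gene, 40159 bp from Cerkl. The Itgb7 site lay 8677 bp inside the gene, 9118 bp from the end of Zfp740, and 177 bp from a tumor H3K27ac summit. Itgad had 1 summit in each normal library and 1 and 3 in the tumor libraries, and its site also had a summit of both normal libraries within 1 kb. Itgax, one of the chains that pair with the Itgb2 product, had 0 YAP summits in all 4 libraries, and Itgb2 itself had 0 and 0 and 2 and 4, with no site. Within tumor 2 alone 8 of the 9 leukocyte genes had a summit, and within tumor 1 alone 6, so the count of 4 rests on requiring both.

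**Figure D2:**
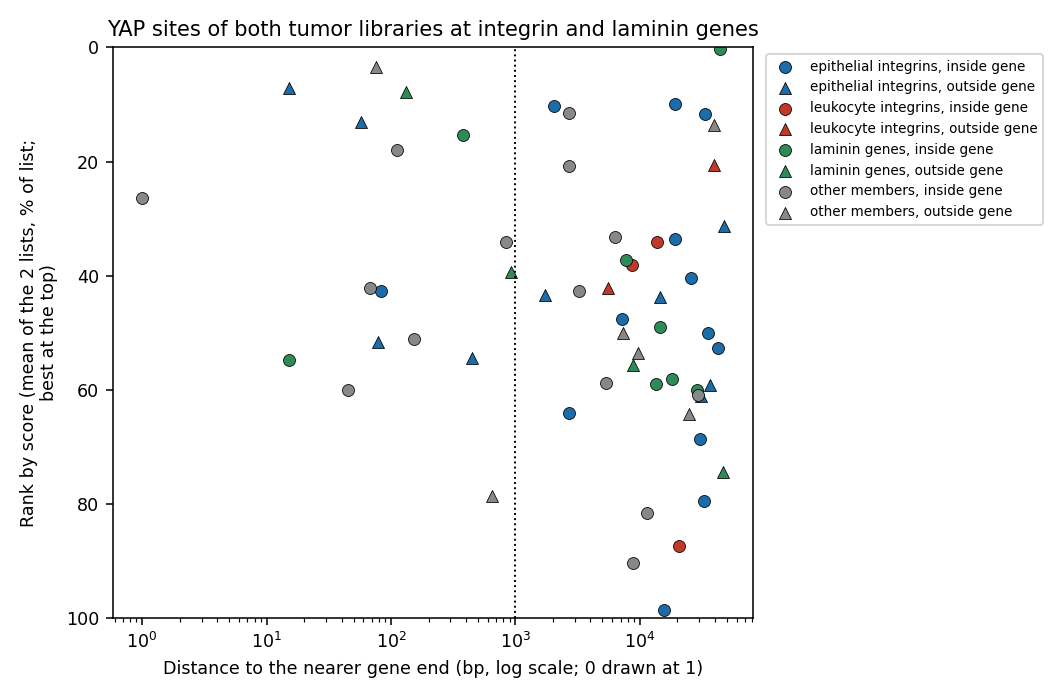
The 59 YAP sites of both tumor libraries at member genes, by distance to the nearer gene end (log scale) and by score rank as a percent of the list (mean of the 2 lists, best at the top); circles lie inside the gene and triangles outside. Left of the dotted line at 1 kb are 17 sites, 5 of epithelial integrins and 0 of leukocyte integrins.

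Side by side, 7 of 9 epithelial and 4 of 9 leukocyte integrins had a tumor YAP site (60.1% of all genes), and 5 of 9 and 0 of 9 had one within 1 kb of the gene end (41.4% of all genes). The 1 kb limit as a separate count was chosen after the values were seen. Epithelial integrins also have more sequence assigned to them, a median of 116.3 kb against 50.1 kb per gene. Per 100 kb the epithelial genes held 2.19 sites, the leukocyte genes 0.981 and all genes 1.89. In tumor 1 the densities of single summits were 3.08, 1.57 and 2.39 per 100 kb, and in tumor 2 they were 5.27, 4.12 and 3.34, so in tumor 2 the leukocyte integrins lay above all genes. As a share of all summits, epithelial integrins held 0% and 0.0467% in the normal libraries and 0.0810% and 0.0983% in the tumor libraries, and leukocyte integrins 0.0605% and 0.0467% and 0.0209% and 0.0390%. The groups did not overlap in either case, but each normal value rests on at most 1 summit, at Itga6 for epithelial and at Itgad for leukocyte integrins. With so few summits and 2 libraries a group, the shares do not settle a difference between the groups. Leukocyte marker genes, at 4 of 18 with a site, and epithelial markers, at 10 of 13, differed in the same direction. Fibroblast, muscle and endothelial markers had a site at 7 of 13. Mesenchymal and other integrins had one at 6 of 7, with 2.14 sites per 100 kb, so such values were not particular to epithelial integrins. Spi1, a myeloid transcription factor gene, had 3 sites and was the 1 leukocyte marker with a site within 1 kb of its end. By score the epithelial sites did not rank better. Their median position was 54.0% of the tumor 1 list and 37.4% of the tumor 2 list, against 42.9% and 34.0% for the 5 leukocyte sites. Genes are not replicates, and with 9 genes a side no test of this contrast was made.

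**Figure D3:**
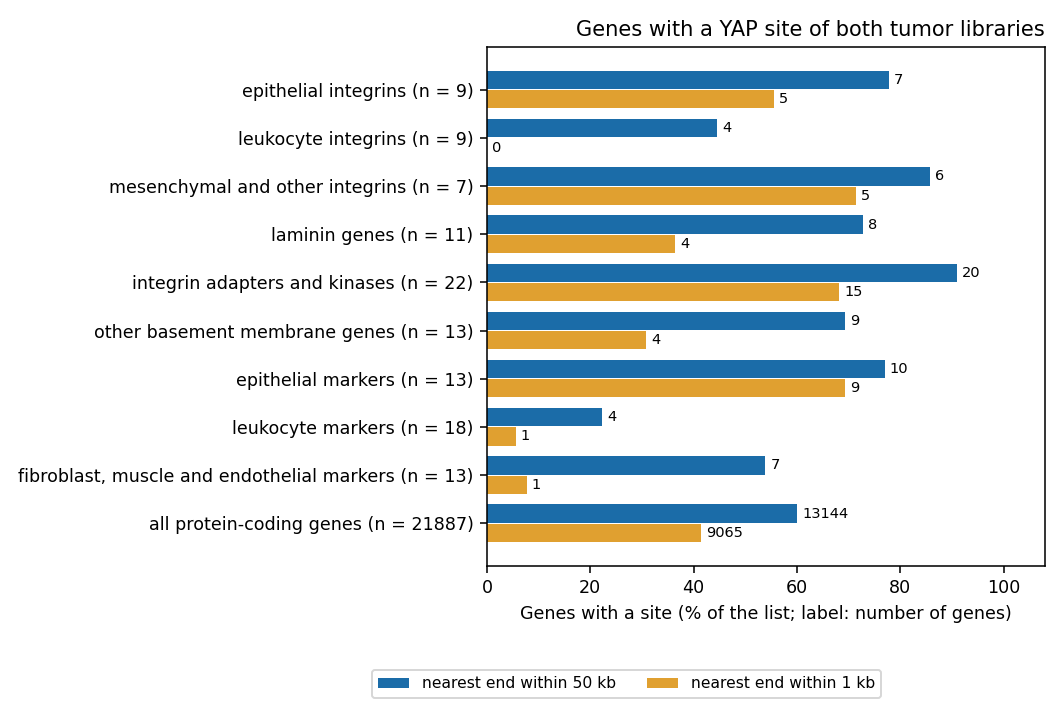
Share of each gene list with a YAP site of both tumor libraries, by nearest gene end within 50 kb (blue) or 1 kb (orange); labels give the number of genes. Leukocyte integrins, at 4 and 0 of 9, sit below all genes in both bars, and epithelial integrins, at 7 and 5 of 9, above.

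Laminin genes had a tumor YAP site at 8 of 11, against 60.1% of all genes, with 12 sites in all, and at 4 of 11 within 1 kb of the gene end, against 41.4%. Per 100 kb they held 1.04 sites, below the 1.89 of all genes. Among the alpha chains Lama1, Lama2 and Lama5 had sites and Lama3 and Lama4 had none. Lama5, the alpha chain of the widespread laminins of adult epithelia, had 0 and 0 normal and 3 and 5 tumor summits, with a site 15 bp inside the gene end (-30 bp from the RefSeq start) that lay 259 and 242 bp from a normal and a tumor H3K27ac summit. Lama3, whose product shares with that of Lamb3 the laminin bound by hemidesmosomes, had 1 summit in each tumor library by the nearest-end rule. It is 249597 bp long, and 3 paired sites inside it were not assigned to it by that rule. Among the beta chains all 3 genes had sites. Lamb1, the partner of Lama5 and Lamc1 in many basement membranes, had 3 sites, from 0 and 0 normal and 4 and 8 tumor summits. Lamb3 had 0 and 0 and 3 and 3, with a site at chromosome 1, position 193302081 next to the CATTCC match printed above. That site lay 7728 bp from the nearer gene end, so it is not among those within 1 kb. Lamb2 had 0 and 0 and 2 and 1, with a site 918 bp outside the gene.

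Among the gamma chains, Lamc1, a chain of most laminins, had 0 and 0 normal and 3 and 7 tumor summits and 1 site. At chromosome 1, position 153332919, it lay 133 bp outside the gene and ranked 2590 and 4815. Normal and tumor H3K27ac summits were 291 and 266 bp from it. Lamc3 had 2 and 1 summits and no site.

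Of the 7 integrin chains of mesenchymal and other cells 6 had a site (60.1% of all genes) and 5 had one within 1 kb of the gene end (41.4% of all genes). Itga1, a collagen receptor chain that lies beside Itga2, had 4 sites from 0 and 0 normal and 4 and 5 tumor summits, the best 111 bp inside the gene end. Itga5, the fibronectin receptor chain, had 3 sites, from 0 and 0 and 3 and 4 summits, with one 152 bp inside the end. Itga9 had 4, one of them at its end coordinate, though at -104983 bp from the RefSeq start that was matched. Itga11, a collagen receptor chain of fibroblasts, had 1 and 1 tumor summits and no site. Both platelet chains had sites, a count of 2 that is too small to set against 60.1% of all genes. Itga2b, a marker of megakaryocytes and platelets, had 0 and 0 normal and 2 and 2 tumor summits that paired at both places, 2710 and 2692 bp from a gene end. Both sites lay within 200 bp of a tumor H3K27ac summit (185 and 89 bp), while the nearest normal summits were 19845 and 8661 bp away. Among the genes only named after integrins, Itgb3bp, which encodes a kinetochore protein, had its site 76 bp beyond the gene end with ranks of 2200 and 669, but the end of Efcab7 lay 154 bp from it. Of the 59 sites at members, 10 had the end of another gene within 10 kb.

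In the libraries labelled normal, 4 members had a YAP site of both replicates, against 0.950% of all genes: Lama1, Itgad, Itga8 and Itgbl1. All 4 sites lay inside the gene and far from its ends, by 13876 to 44282 bp. The Lama1 site, at chromosome 17, position 67741409, ranked 48 and 60 in the normal libraries, and a tumor YAP site 1 bp from it ranked 80 and 122, the best rank of any member. Normal and tumor H3K27ac summits lay 79 and 5 bp away, so that all 6 libraries had a summit at this place. The Itga8 site had a tumor 1 summit 60 bp away but none of tumor 2 within 1 kb, and the Itgbl1 site had none of either. With the gene end within 10 kb, 0 members had a normal site. At the length of the shortest normal list, 1 member had a tumor site of both libraries, and regrouped by the words in the peak names, the libraries normal 2 and tumor 2 shared a site at 3 members. The share of all genes was not counted at 10 kb or with the lists shortened or regrouped. Whether members differ there from genes in general was not tested.

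H3K27ac was compared with 1 library a group, so there is no replicate check. In normal 30 members had a summit (54.3% of all genes) and in tumor 40 (81.4%), and within 1 kb of the gene end 22 (44.0%) and 30 (59.7%). Summits at members numbered 51 in normal and 156 in tumor, and 41 when the tumor list was shortened by score to the length of the normal one. At that length 16 members had fewer summits in tumor (20.5% of all genes) and 8 had more (16.4% of all genes). The median log2 ratio of tumor + 1 to normal + 1 was 0 for members and 0 for all genes. With the full lists, of unequal length, 33 members had more (58.1% of all genes) and 2 fewer (7.37%). A gene with no summit cannot have fewer, and 8 of the 42 members had none in either list at equal length, against 7496 of all 21887 genes. When a difference of 2 summits was required, 3 members had fewer and 3 more, and the share of all genes at that limit was not counted.

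The 3 with fewer were Itgb5, with 5 normal and 2 tumor summits, Itgb6, with 3 and 0, and Itgb1bp1, with 2 and 0. In the full tumor list these genes had 12, 4 and 5 summits, so further tumor summits were present near them but scored below the limit. Those summits need not lie where the normal ones did. The Itgb6 site at position 60703506 was 532 bp from a normal H3K27ac summit and 9668 bp from the nearest tumor one. The 3 with more were Itga2b, with 0 normal and 2 tumor summits, Lama3, with 0 and 2, and Itgbl1, with 0 and 2. At equal length 4 of 9 epithelial integrins had fewer summits (20.5% of all genes) and 1, Itgb1, had more (16.4% of all genes). Of the 9 leukocyte integrins 4 had fewer, each by 1 summit, and 0 more. Another 4 leukocyte integrins had no summit in either list, so they could not have fewer. All 3 laminin beta chains had 1 summit fewer, a group too small to set against the share of all genes. At several genes the full tumor list held many more summits than the shortened one. Lamc3 had 0 normal and 8 tumor summits, Lama5 1 and 9, and Itga3 1 and 8, and at equal length the tumor counts were 0, 1 and 1, the same as the normal ones. Itga11 had 0 normal and 9 tumor summits, of which 1 was left at equal length. Of the 51 normal summits at members 78.4% (Wilson 95% interval 65.4 to 87.5) lay within 1 kb of a tumor summit, compared with 83.3% over all genes, and for leukocyte integrins 3 of 7 did.

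**Figure D4:**
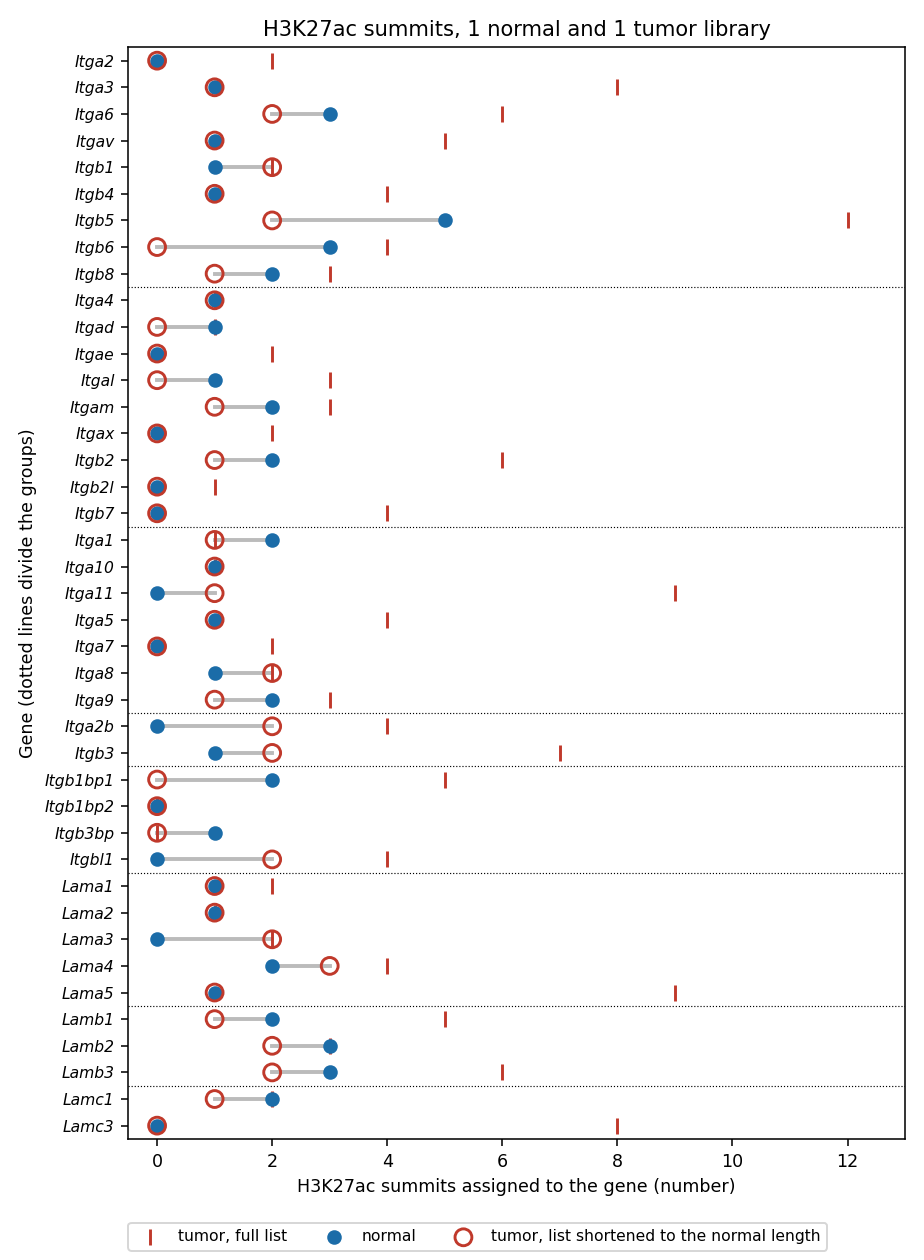
H3K27ac summits assigned to each of 41 member genes in the normal library (filled circles), in the tumor list shortened to the normal length (open circles) and in the full tumor list (vertical ticks). The longest grey lines, 3 summits each, belong to Itgb5 and Itgb6.

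Each of the 17 tumor YAP sites within 1 kb of a member's gene end had a tumor H3K27ac summit within 1 kb, as did 13 of the 42 farther sites. Of all 59 tumor YAP sites at members 50.8% (Wilson 95% interval 38.4 to 63.2) had a tumor H3K27ac summit within 1 kb, against 56.7% of sites over all genes. Of the 17 sites at gene ends, 15 had H3K27ac of both libraries. Of the 42 farther ones, 23 had none of either library, 9 had the tumor mark only, 6 the normal mark only and 4 both. Over all genes, 9329 of 25076 sites at any distance had none of either library, beside 23 of the 59 at members. The split by distance was not made over all genes, so whether members differ in it was not tested. Among epithelial integrins 10 of 22 sites had no H3K27ac within 1 kb, and the Lamc1 site had it in both libraries. With the gene end within 10 kb the share with tumor H3K27ac was 75.8%, and with tumor 2 alone it was 36.6%.

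Other genes of the same machinery were taken as lists. Of 22 integrin adapters and kinases, which tie the beta chain tails to actin and signal from them, 20 had a tumor YAP site and 15 had one within 1 kb of the gene end (60.1% and 41.4% of all genes). These genes are long too, with a median of 70.3 kb against 17.2 kb. Per 100 kb they held 3.03 sites against 1.89 for all genes. The best-ranked belonged to Pxn, the focal adhesion adapter paxillin, Vcl, which links talin to actin, Zyx, a sensor of actin tension, and Lims1, a partner of integrin-linked kinase. Pxn, Vcl, Zyx and Lims1 had 5, 4, 1 and 2 sites and summit counts of 6 and 9, 4 and 6, 1 and 1, and 2 and 6 in tumor 1 and tumor 2. All 4 had 0 summits in both normal YAP libraries, where only 2.79% (normal 1) and 5.98% (normal 2) of all genes had one. Actn1, an actin crosslinker gene, had 7 normal and 1 tumor H3K27ac summits at equal list length but 7 and 13 with the full lists. Of the 4 hemidesmosome genes 3 had a site, and Plec, which ties the Itgb4 product to keratin, had 7. Of 13 other basement membrane genes 9 had a site, with Dag1, a laminin receptor gene outside the integrin family, and Agrn, a heparan sulfate proteoglycan gene, the best ranked. Dag1 had 5 normal and 1 tumor H3K27ac summits at equal length and 5 and 5 with the full lists, and Col4a1, a type IV collagen chain gene, had 2 and 0 at equal length but 2 and 8 with the full lists.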

How the data were processed

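Each of the 6 libraries is represented by 1 list of 1 bp summits, whose score is, from its values and peak names, a −log10 p-value or −log10 q-value deposited by the authors (which one is not stated). Per the submitters' processing notes, Bowtie2, MACS2 and the build GRCm38 (mm10) were used; the versions, thresholds and any control libraries were not given in the sources used here. Scores served only to rank or filter summits within a list. Only the main chromosomes (1 to 19, X, Y) were used. Gene positions and promoter windows came from RefSeq tables of GRCm38.p6. Replicate summits were paired one to one, nearest first, within 200 bp. Python 3.11.15, numpy 2.4.6, pandas 2.3.3, scipy 1.17.1 and matplotlib 3.10.9 were used, and assignment and pairing were tested on simulated data. Wilson intervals cover counting error only. Depth is unknown. Members could be named (1 is not reported here singly, nor is 1 marker gene), and from each other list up to 4 genes by their best-ranked site or largest H3K27ac difference; cell type markers beyond that were named after their values were seen, as a check of the tissue. The members and lists were chosen with earlier results of these data known, so no p-value is printed for the members or lists, including that of the planned exact permutation of the share of summits. Alternatives covered pairing distance, score minimum, assignment, list length, libraries left out and regrouping.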

Additional observations from a re-analysis of the deposited data

How the results depend on the processing

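Of the 42 members, 29 had a tumor YAP site; single libraries gave 37 to 39 (9 in both for epithelial integrins, 6 to 8 for leukocyte integrins, 10 to 11 for laminins). At a score of at least 10 the counts were 13 members, 4 epithelial integrins, 1 leukocyte integrin and 3 laminins, and 2 members for normal sites. Within 1 kb of the gene end, chosen after the data were seen, they were 17, 5, 0 and 4 (41.4% of all genes), and 0 for normal sites. Within 10 kb they were 24 members, 6 epithelial integrins, 2 leukocyte integrins and 6 laminins, and 0 for normal sites. Shortening the tumor lists to the shortest normal one left 1 member, and libraries sharing the tumor word 3. Without Itgav, Itgb1 and Itgb5, 4 of the remaining epithelial integrins had a site, and without Itga4 and Itgb2l, 3 of the remaining leukocyte integrins. Single normal libraries gave 4 to 5 members. Shares of all genes were not counted at a score of at least 10, within 10 kb, or with lists shortened or regrouped. Nor were they counted for normal sites within 1 kb. Whether members shift more than genes in general at these settings was not tested.

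The tumor minus normal share of summits at members, 0.00787 percentage points, turned to -0.0718 when summits inside a gene went to that gene and to -0.181 at equal list length; leaving out each library gave -0.0156 (without tumor 2) to 0.0313. With a replicate block, pairing equal numbers, it was 0.00787. The 8 and 16 members with more and fewer H3K27ac summits became 33 and 2 with full lists, 3 and 8 at a score of at least 10, 3 and 3 at a difference of 2, and 5 with more after summits closer than 2 kb were merged. With full lists 58.1% and 7.37% of all genes had more and fewer, and shares at the other 3 settings were not counted. The share of member sites with tumor H3K27ac, 50.8%, was 68.8% at a score of at least 10, 75.8% within 10 kb, and 36.6% to 51.8% with single tumor libraries. The cause of these shifts was not tested. Unknown depth limits every count between libraries.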

Other observations

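Several members lie next to each other, so that a site may stand between them. Itga2 and Itga1 are neighbours on chromosome 13, and Itgam, Itgax and Itgad on chromosome 7. A tumor YAP site 6362 bp inside Itga1 lay 32341 bp from the end of Itga2, and one 20704 bp inside Itgam lay 31739 bp from the end of Itgax.

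Counts inside gene bodies, whatever end is nearest, give another view of the long members. Tumor YAP sites numbered 47 inside 26 of the 42 members, 3 of them inside Lama3. In the full tumor H3K27ac list 12 summits lay inside Itgbl1, 13 inside Itgb5 and 8 inside Itga11, against 1, 5 and 0 in the normal list, which is shorter.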
